A study of Mus musculus with 6 samples.

Results

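Fibroblast and mural cell markers tell connective tissue cells from the cells that wrap blood vessels. The genes described were Pdgfra, Dcn, Lum and Thy1 for fibroblasts, Pdgfrb, Rgs5, Cspg4 and Des for pericytes, and Acta2 and Tagln for smooth muscle. They were chosen by name, as every probe whose gene name on the array equalled one of these symbols. This gave 10 genes of the 30119 genes on the array, each with 1 probe. All were measured in the side population of the anterior pituitary of female mice, a rare fraction sorted by its efflux of Hoechst dye, and gated against high Sca1. That protein is found on many endothelial cells and on some fibroblasts, so the gate bears on which stromal cells can be present.

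The tested animals were GHCre/iDTR mice, in which Cre driven by the growth hormone gene switches on a diphtheria toxin receptor, and the controls were -/iDTR mice, which carry the receptor allele without Cre. Mice of both genotypes were given diphtheria toxin over 3 or 10 days, with 2 doses daily of 4 ng for each g of body weight, so the controls were exposed to the toxin too. The arrays were 2 of GHCre after 3 days, 2 of control after 3 days, 1 of GHCre after 10 days and 1 of control after 10 days. Ages were not given in the sources used here. The series design calls the samples independent, but nothing states how many animals went into a sort, so p-values measure only the spread between these arrays.

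Fibroblasts build and maintain collagenous matrix, and they signal through the receptor that Pdgfra encodes. Pericytes sit inside the basement membrane of capillaries, and their recruitment depends on platelet-derived growth factor B acting on the receptor that Pdgfrb encodes. Smooth muscle cells surround larger vessels and carry a contractile apparatus that includes the products of Acta2 and Tagln. The gland is densely vascularised, and both stromal and mural cells lie between its hormone cells.

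A level below is the log2 of a probe's processed signal over the 75th percentile of that array. It can be compared between arrays for 1 probe, but not between probes. The summed level of a list is the log2 of the sum of the unlogged levels of its tested genes. Probes of high signal weigh most in it, so it need not follow the other genes of the list. The 75th percentile of signal lay between 186.15 and 298.51 on the 6 arrays, and 53.8% of probes were well above background on replicate 1 of the 3 day controls, against 61.4% to 65.8% on the other arrays. Replicate 1 of both genotypes after 3 days shared 1 slide, and replicate 2 of both shared another with the 10 day GHCre array. The 10 day control was on a slide of its own. Gh, the transcript of the ablated cells, had levels of 5.46 and 2.20 in the GHCre arrays after 3 days, against 5.69 and 3.65 in the controls, and 2.21 against 7.86 after 10 days. The 10 day difference of Gh was not its alone: 5 of the 6 hormone genes tested were lower in GHCre, with a median of -3.78, and Cga stood at -7.23 ± 2.68 and Tshb at -3.28 ± 0.84. Of 10 stem and folliculostellate cell genes, 7 were well above background on all 6 arrays. Of these 7, 5 had a 3 day difference above 0 and 2 below it, with a median of 0.98. After 10 days 6 of the 7 were lower in GHCre, with a median of -0.82, and only Sox9 was higher. Sox9 had levels of 2.54 and 1.75 in the 3 day GHCre arrays, against 2.02 and 0.32 in the controls. Its level was 1.82 in the 10 day GHCre array, against 1.56 in the control. Sox2 was not well above background on any array.

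The probes of Dcn and Des are shown because Dcn belongs to the pair of members with the most similar pattern and Des has the widest 3 day genotype difference, and because both probes end at the close of the coding sequence. Capitals mark the stop codon, which starts at base 55 of the Dcn probe and at base 54 of the Des probe. All but the last 3 bases of the Dcn probe and the last 4 of the Des probe therefore lie in coding exon or the stop codon itself.
Dcn: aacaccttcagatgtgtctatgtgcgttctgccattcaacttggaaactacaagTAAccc
Des: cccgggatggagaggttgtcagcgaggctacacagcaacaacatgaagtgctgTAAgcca
In the mm9 annotation of the array, the Dcn probe lies on the plus strand of chromosome 10 from 96980233 to 96980292. The Des probe covers 60 bases within chr1:75363404-75363629, also on the plus strand, a span of 226 bases, so it crosses a gap between exons.

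After 3 days of toxin, all 4 fibroblast genes had higher levels in both GHCre arrays than in both control arrays, with a median log2 difference of 0.78 against -0.04 for all genes tested. None passed the adjusted threshold of 0.05, and neither did any of the 20924 genes tested (percent called 0) in limma's fit, of which 1376 had an unadjusted p below 0.05, or 6.58%. Of the 10 members, 9 had a difference above 0, where 48% of all genes did, and in 7 both GHCre arrays lay above both controls, as in 16.7% of all genes. Those 7 were the 4 fibroblast genes with Pdgfrb, Des and Tagln. Without replicate 1 of the 3 day controls, or without replicate 1 of the 3 day GHCre group, 8 of 10 were above 0.

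Pdgfra encodes the alpha receptor for platelet-derived growth factors and is the most widely used fibroblast surface marker. Its levels were 2.21 and 2.23 in the GHCre arrays after 3 days, against 1.64 and 1.19 in the controls, and 1.95 in the GHCre array after 10 days, against 2.23 in the control. The 3 day controls were thus the low arrays, and the other 4 arrays lay within 0.29 of one another. The 3 day difference was 0.80 ± 0.42 (SE, 2 arrays a group), a 1.75-fold ratio, with a limma adjusted p of 0.84. It was 0.57 within the slide of replicate 1 and 1.04 within the slide of replicate 2. The probe was spotted 10 times on each array, and its spots differed with an SD of 0.03 to 0.06, which is technical error within an array and not the spread between samples. The probe lies at chr5:75593888-75593947 of mm9.

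Dcn encodes decorin, a small proteoglycan that binds collagen fibrils. It had levels of 7.07 and 6.63 in the 3 day GHCre arrays, against 6.54 and 5.80 in the controls, and 6.46 in the 10 day GHCre array, against 6.25 in the control. The 3 day groups were separated by only 0.09 between the lower GHCre and the higher control array. The 3 day difference was 0.68 ± 0.50, with a limma adjusted p of 0.87, and it was 0.54 and 0.83 within the 2 slides. Dropping control replicate 1 gave 1.05, and dropping control replicate 2 gave 0.31.

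Lum encodes lumican, a related collagen-binding proteoglycan, and its probe lies 54917 bases downstream of that of Dcn, at chr10:97035210-97035269. Its levels were 4.37 and 4.02 in the 3 day GHCre arrays, against 3.96 and 2.92 in the controls, and 3.76 in the 10 day GHCre array, against 3.44 in the control. The order of the 6 arrays was that of Dcn. After centring each gene on its own mean, Dcn and Lum differed by 0.089 on average over the 6 arrays, the smallest value among the 45 pairs of members. The 3 day difference of Lum was 0.76 ± 0.55, with a limma adjusted p of 0.87. Dropping control replicate 1 gave 1.28, and dropping control replicate 2 gave 0.24.

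Thy1 encodes a surface glycoprotein of fibroblasts that mouse T lymphocytes and many neurons carry as well. Its levels were 2.62 and 3.24 in the 3 day GHCre arrays, against 0.44 and 1.94 in the controls, and 2.58 in the 10 day GHCre array, against 2.19 in the control. Replicate 1 of the 3 day controls was the lowest array, and the 2 controls differed by more than the GHCre and control arrays nearest each other. The 3 day difference was 1.74 ± 0.70, or 3.33-fold, with a limma adjusted p of 0.78. Without replicate 1 of the controls it was 0.98, and without replicate 2 it was 2.49. T lymphocyte markers are given beside it. Of 9 tested of 10 in the list, 7 had a higher 3 day mean in GHCre, with a median of 1.29, and the summed level of the list was 4.40 and 4.15 in the GHCre arrays, against 3.80 and 3.17 in the controls. Leaving out an array left 5 to 7 of the 9 higher, with medians of 0.73 to 1.76. Cd3g had a difference of 1.84 ± 0.70 and Cd4 one of -1.16 ± 0.43. Cd5 had levels of 0.13 and -1.82 in the GHCre arrays, against -4.07 and -2.60 in the controls, of which 1 was well above background. Cd8a had levels of -5.36 and -3.42 in the GHCre arrays, of which 1 was well above background, against -1.74 and -2.35 in the controls. The part of T lymphocytes in the Thy1 level was not tested. In sorted cells, more cells of a type and more RNA per cell cannot be told apart, for Thy1 and for every gene here.

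**Figure D1:**
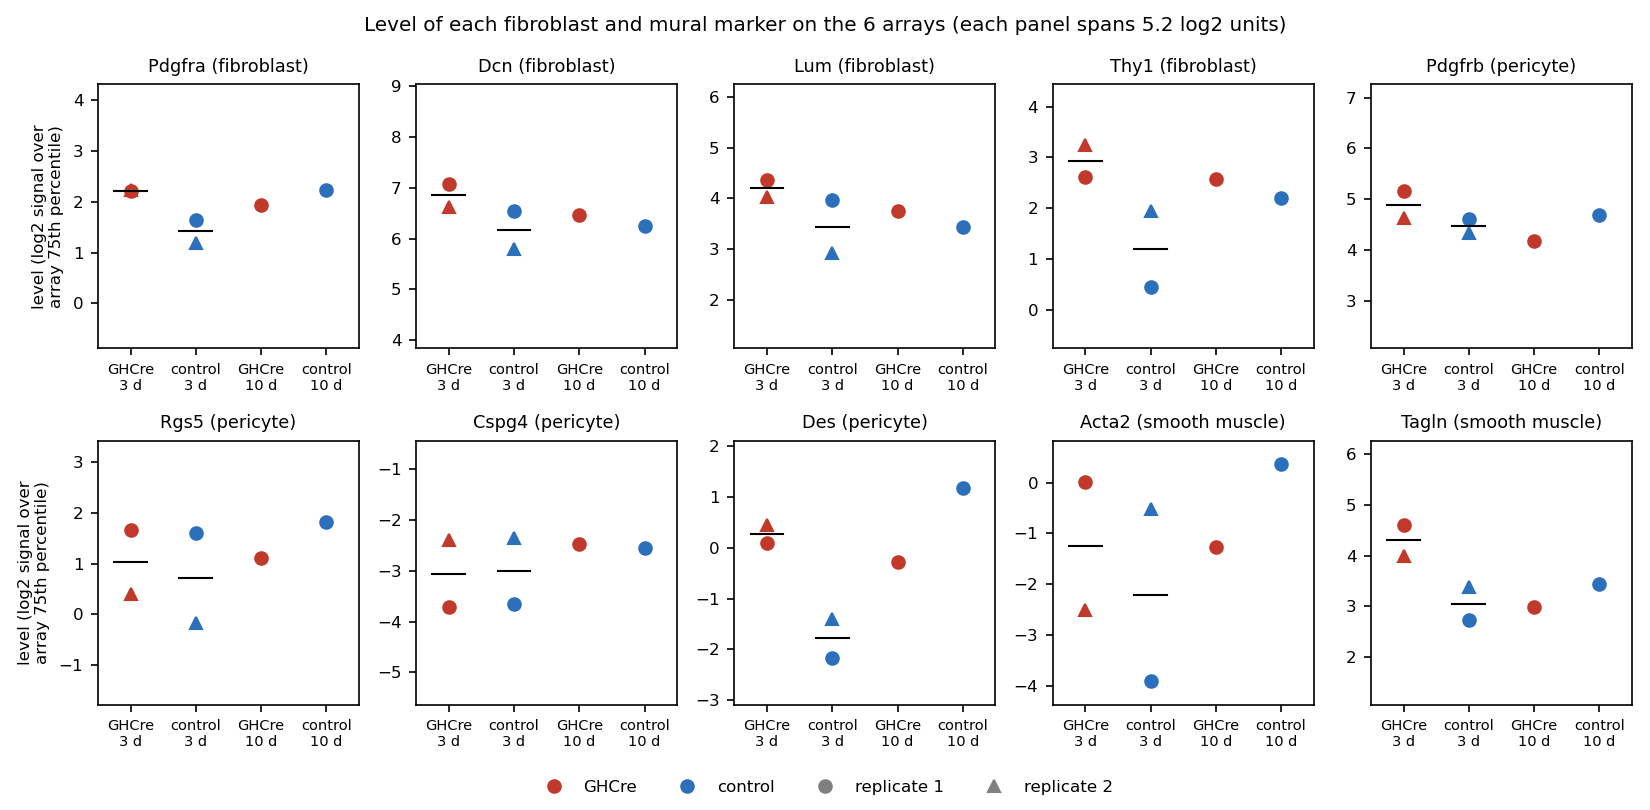
Levels of the 10 markers (y axis, log2 signal over the array's 75th percentile) by genotype and day, GHCre in red and control in blue, with circles for replicate 1, triangles for replicate 2 and a bar at the mean of the 2 arrays of 3 days. Each panel spans the same number of log2 units. Pdgfra, Thy1, Des and Tagln show both 3 day GHCre arrays above both controls. So do Dcn, Lum and Pdgfrb, but by only 0.09, 0.06 and 0.0099, while Rgs5 and Cspg4 follow the replicate number.

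The mural genes differed among themselves after 3 days. The median log2 difference of the 6 was 0.69, but both GHCre arrays lay above both controls in 3 of them, Des, Tagln and Pdgfrb. The other 3, Rgs5, Cspg4 and Acta2, had overlapping groups.

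Des encodes desmin, the intermediate filament of muscle cells and of many pericytes. Its levels were 0.09 and 0.44 in the 3 day GHCre arrays, against -2.16 and -1.40 in the controls, and -0.27 in the 10 day GHCre array, against 1.18 in the control. The 3 day controls were the lowest arrays and the 10 day control the highest. The 3 day difference was 2.05 ± 0.49, a 4.14-fold ratio, and it was 2.26 and 1.84 within the 2 slides. Its unadjusted p in limma's fit was 0.0138, and 3.95% of all genes had one below 0.05 with a higher GHCre mean. Its adjusted p was 0.69. Leaving out each 3 day array in turn gave 1.67 to 2.43, and normexp background correction with the same scaling gave 1.34. The 10 spots of the probe had an SD of 0.04 to 0.09 on each array. Skeletal muscle genes accompany desmin in muscle fibres. Of 8 such genes, Acta1, Tnnt3, Tnnc2 and Myog were well above background on all 6 arrays, Ckm was so on 1 array, and Myh1, Myh4 and Mylpf on none. Of the 4 tested, 2 had a 3 day difference above 0, with a median of -0.17 and a range of -0.47 to 0.50, and their summed level was -0.87 and -0.85 in the 3 day GHCre arrays, against -0.84 and -0.65 in the controls.

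Tagln encodes transgelin, an actin-binding protein of smooth muscle that activated fibroblasts also make. Its levels were 4.60 and 4.00 in the 3 day GHCre arrays, against 2.73 and 3.38 in the controls, and 2.99 in the 10 day GHCre array, against 3.44 in the control. The 3 day GHCre arrays were the 2 highest of the 6. The 3 day difference was 1.25 ± 0.50, or 2.37-fold, with a limma adjusted p of 0.78. It was 1.88 within the slide of replicate 1 and 0.62 within that of replicate 2.

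Pdgfrb encodes the receptor that pericytes need for recruitment, although fibroblasts express it too. Its levels were 5.15 and 4.63 in the 3 day GHCre arrays, against 4.62 and 4.33 in the controls, and 4.17 in the 10 day GHCre array, against 4.70 in the control. The nearest GHCre and control arrays of 3 days were 0.0099 apart, so the separation was slight. The difference was 0.42 ± 0.45, with a limma adjusted p of 0.89. It was 0.15 without replicate 1 of the GHCre group, 0.68 without its replicate 2 and 0.27 without replicate 2 of the controls.

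Rgs5 encodes a regulator of G protein signalling that is enriched in pericytes. Its levels were 1.66 and 0.39 in the 3 day GHCre arrays, against 1.60 and -0.17 in the controls, and 1.11 in the 10 day GHCre array, against 1.81 in the control. The high and the low array of each 3 day genotype were replicate 1 and replicate 2, which were on different slides. The genotype difference was 0.31 ± 0.86, and it was 0.06 and 0.56 within the slides.

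Cspg4 encodes the NG2 proteoglycan of pericytes and of oligodendrocyte precursors. It was dim, with levels of -3.71 and -2.39 in the 3 day GHCre arrays, against -3.65 and -2.36 in the controls, and -2.47 in the 10 day GHCre array, against -2.55 in the control. Replicate 1 of the 3 day controls was not well above background. The 3 day values again paired by replicate number, and the genotype difference was -0.05 ± 0.76. An interval of that width does not show that the genotypes were alike.

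Acta2 encodes smooth muscle actin, the marker of contractile mural cells and of myofibroblasts. Its levels were 0.02 and -2.50 in the 3 day GHCre arrays, against -3.91 and -0.51 in the controls, and -1.27 in the 10 day GHCre array, against 0.36 in the control. The arrays of 1 genotype differed more than the genotypes did, and the difference was 3.93 within the slide of replicate 1 and -1.99 within that of replicate 2. The pooled difference of 0.97 ± 1.54 had a limma adjusted p of 0.92, and without replicate 1 of the controls it was -0.73. On that control array 1 of the 10 spots was well above background and 8 were unflagged, with an SD of 0.33, whereas the spots of the other arrays had SDs of 0.05 to 0.14. The spread of Acta2 between arrays was therefore far larger than its spread between spots.

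**Figure D2:**
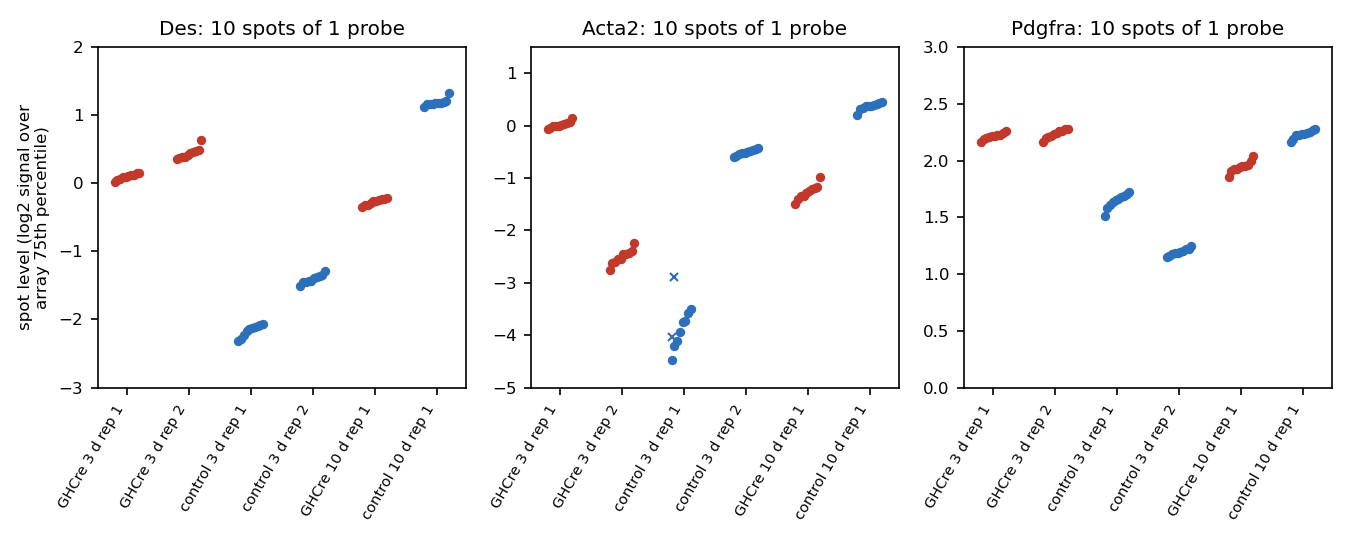
Levels of the 10 spots of the Des, Acta2 and Pdgfra probes on each array (y axis, log2 signal over the array's 75th percentile), with red for GHCre, blue for control and crosses for spots with an outlier mark. Spots of an array lie close together for Des and Pdgfra, while the arrays of Acta2 are spread from -3.91 to 0.36 with no order by genotype.

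Smooth muscle genes are classically controlled by serum response factor, which binds the CArG box, and muscle genes by factors that bind CAGCTG, 1 form of the E box. The 250 bases before the start of Des and of Acta2 are shown because these 2 genes had the widest ranges over the 6 arrays and yet differed in their pattern. The sequences come from RefSeq on GRCm38.p6 (5 of the 10 members had an entry), and are written 5′ to 3′ on the gene's strand, which is plus for Des and minus for Acta2. Capitals mark matches on either strand to CAGCTG or to the CArG box with 1 core base other than A or T allowed.
Des, chr1:75360042-75360291: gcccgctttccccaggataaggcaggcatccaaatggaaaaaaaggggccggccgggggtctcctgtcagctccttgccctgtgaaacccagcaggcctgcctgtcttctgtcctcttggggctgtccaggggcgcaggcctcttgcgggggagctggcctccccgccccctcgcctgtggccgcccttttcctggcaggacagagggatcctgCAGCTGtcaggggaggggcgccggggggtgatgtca
Acta2, chr19:34255374-34255623: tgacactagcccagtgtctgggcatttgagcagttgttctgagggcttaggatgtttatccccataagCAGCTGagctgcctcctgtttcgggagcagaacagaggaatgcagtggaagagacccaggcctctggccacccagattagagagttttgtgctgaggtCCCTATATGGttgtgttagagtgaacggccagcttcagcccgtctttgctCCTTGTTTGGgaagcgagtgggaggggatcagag
Acta2 held 2 such CArG boxes, 84 and 34 bases before the start, and CAGCTG 182 bases before it. Des held CAGCTG 36 bases before the start and no CArG match in this window. Pdgfra, Rgs5 and Cspg4 held none of these. No member's window held a CArG box without a mismatch. Over all 32851 RefSeq promoters of that length, 1.47% held a strict CArG box, 8.59% one with the mismatch allowed and 13.0% CAGCTG. The matches overlap no other match, and they describe letters only.

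After 10 days there was 1 array a genotype, so the spread is assumed to be that of the 3 day arrays, and slide and genotype cannot be told apart. Of the fibroblast genes, 3 of 4 had a difference above 0, with a median of 0.26, and of the mural genes 1 of 6 did, with a median of -0.61. Over all genes 49.9% had a difference above 0 and the median was -0.00. The fibroblast values were -0.28 ± 0.60 for Pdgfra, 0.21 ± 0.70 for Dcn, 0.32 ± 0.78 for Lum and 0.39 ± 0.98 for Thy1. None exceeded its error.

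Among the mural genes, Des had the largest difference for its error, at -1.46 ± 0.69. Acta2 had the most negative value, at -1.63 ± 2.18. Rgs5 stood at -0.70 ± 1.22, Pdgfrb at -0.53 ± 0.63, Tagln at -0.44 ± 0.71 and Cspg4 at 0.08 ± 1.07. All adjusted p in limma's fit were 1, none of the 20924 genes was called (percent called 0), and 631 had an unadjusted p below 0.05, or 3.02%. No member was among these.

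**Figure D3:**
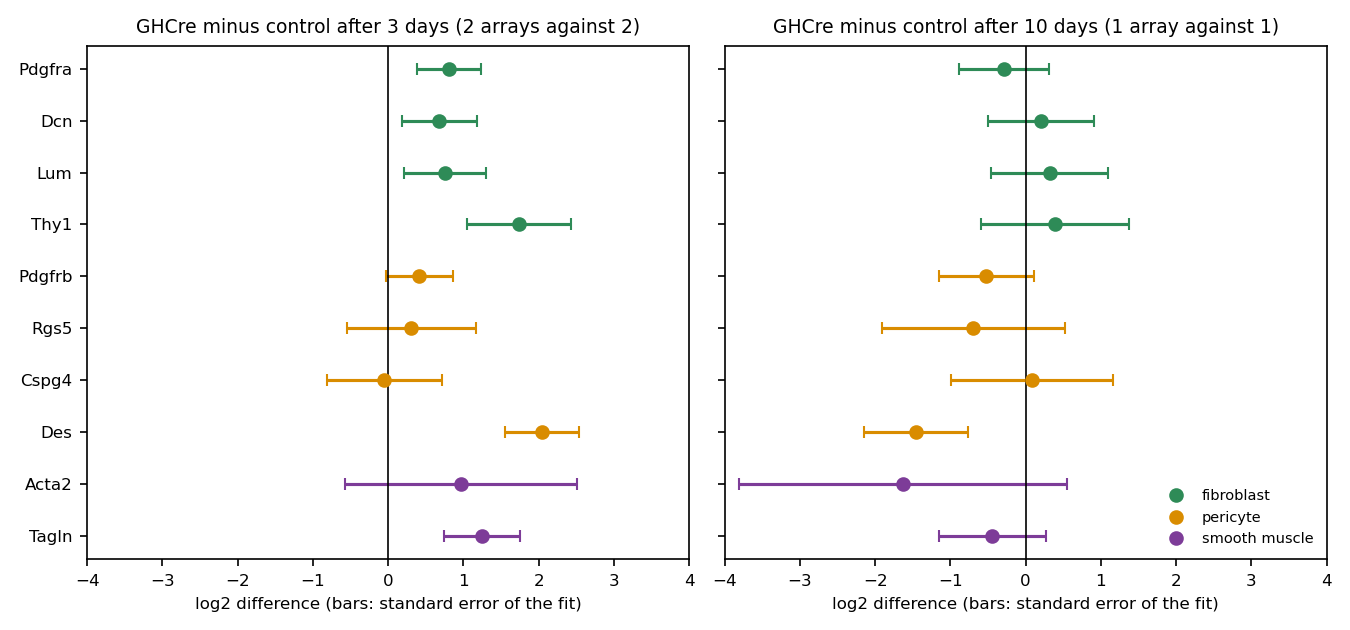
GHCre minus control differences (x axis, log2) of the 10 markers after 3 days, left, and after 10 days, right, with bars of 1 standard error of the fit and colours for fibroblast, pericyte and smooth muscle genes. After 3 days 9 of 10 points lie above 0, and after 10 days 5 of the 6 mural points lie below it.

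The difference between the 10 day and the 3 day genotype effect was below 0 for all 4 fibroblast genes, with a median of -0.78, and for 5 of the 6 mural genes, with a median of -1.35. Over all genes 51.4% were above 0. The value was -3.51 ± 0.85 for Des, with an unadjusted p of 0.0144 and an adjusted p of 1.00 in limma's fit. Below 0 and with an unadjusted p under 0.05 stood 2.49% of all genes. It was -1.69 ± 0.87 for Tagln, -1.35 ± 1.21 for Thy1, -1.09 ± 0.74 for Pdgfra and -2.60 ± 2.67 for Acta2. Without replicate 1 of the 3 day controls, Thy1 stood at -0.59 and Acta2 at -0.90. Without replicate 1 of the 3 day GHCre group Acta2 stood at -1.34, and without replicate 2 of the controls at -4.30. No gene of the 20924 passed the adjusted threshold (percent called 0), and 824 had an unadjusted p below 0.05, or 3.94%. The effects after 3 and 10 days were therefore not shown to differ for any member.

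The time course within each genotype shows which arrays carried these values. In GHCre, 10 days minus 3 days was -1.31 ± 0.62 for Tagln, -0.72 ± 0.55 for Pdgfrb, -0.54 ± 0.60 for Des and -0.28 ± 0.52 for Pdgfra. All 4 fibroblast genes and 4 of the 6 mural genes were below 0, where 57.3% of all genes were above it, and the medians were -0.37 and -0.28 against 0.11 for all genes. In the controls, Des had a difference of 2.97 ± 0.60, or 7.82-fold, with an unadjusted limma p of 0.00774 and an adjusted p of 1.00, where 2.85% of all genes had an unadjusted p below 0.05 in that direction. Acta2 stood at 2.57 ± 1.89, Rgs5 at 1.10 ± 1.05, Thy1 at 1.00 ± 0.85 and Pdgfra at 0.81 ± 0.52. Dcn and Lum stood at 0.08 ± 0.61 and -0.00 ± 0.68. Without replicate 1 of the 3 day controls, Acta2 stood at 0.87, Rgs5 at 1.98 and Thy1 at 0.25, and without replicate 2 they stood at 4.27, 0.22 and 1.75. All 6 mural genes and 3 of the 4 fibroblast genes were above 0, as were 55.1% of all genes, with medians of 0.78 for mural, 0.45 for fibroblast and 0.09 for all genes. No gene was called in either comparison (percent called 0 in both), and 842 genes in GHCre (4.02%) and 849 in control (4.06%) had an unadjusted p below 0.05. These comparisons share arrays with those of genotype, so they are not independent of them. The 10 day control was alone on its slide, so day and slide cannot be told apart in the controls.

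The 2 classes were set against each other by array. Each level was centred on the gene's own mean over the 6 arrays. The mean of the fibroblast genes was then 0.50 and 0.46 in the 3 day GHCre arrays, against -0.43 and -0.61 in the controls. It was 0.12 in the 10 day GHCre array, against -0.04 in the control. The same mean of the mural genes was 0.52 and -0.02 in the 3 day GHCre arrays, against -0.91 and -0.24 in the controls, and -0.07 in the 10 day GHCre array, against 0.71 in the control. The 10 day control thus had the highest mean of the mural class and lay near the middle of the fibroblast class. Des, Acta2 and Rgs5 were highest on it. Tagln and Pdgfrb were highest on replicate 1 of the 3 day GHCre group, and Cspg4 on replicate 2 of the 3 day controls. On replicate 2 of the 3 day GHCre group, the mural mean was near 0 while the fibroblast mean was high. On that array Acta2 lay at -1.20 and Rgs5 at -0.67. Pdgfrb lay at 0.03, Cspg4 at 0.46, Tagln at 0.47 and Des at 0.79, so the low mean rested largely on Acta2. Acta2 was also the lowest mural gene on replicate 1 of the 3 day controls, at -2.61, where 1 of its 10 spots was well above background. Acta2 and Tagln, the 2 smooth muscle genes, differed by 1.16 on average over the 6 arrays after this centring. Among the fibroblast genes, Dcn and Lum differed by 0.089 and Pdgfra and Dcn by 0.24, but Thy1 lay 0.59 from Pdgfra, 0.66 from Dcn and 0.71 from Lum. Across the classes, Pdgfrb lay 0.23 from Dcn and, within its own, 0.37 from Tagln, so the pairs nearest each other did not follow the classes throughout.

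**Figure D4:**
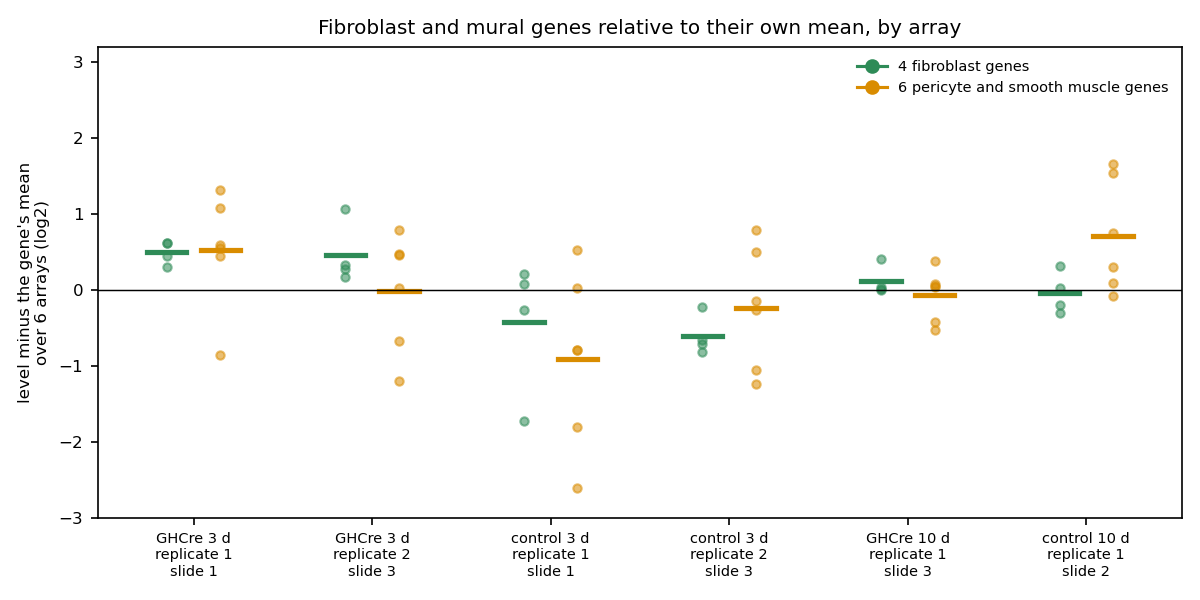
Level of each gene minus its own mean over the 6 arrays (y axis, log2) by array, in green for the 4 fibroblast genes and in orange for the 6 pericyte and smooth muscle genes, with bars at the class means. The fibroblast means of the 3 day arrays are 0.50 and 0.46 in GHCre and -0.43 and -0.61 in control, and the mural points are more scattered.

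Genes outside the set whose 6 centred levels lay nearest to the fibroblast mean, out of 11772 genes with a symbol that were above background on all arrays, included Litaf, Tgfbr2, Pdpk1 and Plpbp. Their mean absolute differences from it were 0.060, 0.072, 0.089 and 0.095, closer than the 0.17 of Pdgfra itself. Nearest to the mural mean were Nkain1, Lmbr1l, Enkd1, Iqgap1 and Spata21, at 0.092 to 0.12, while the members' own values were 0.34 for Pdgfrb to 0.96 for Acta2. With 6 arrays, such nearness is a description.

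Other fibroblast genes leaned the same way after 3 days. Of 23 tested of 25 matrix and fibroblast genes, 20 had a difference above 0, with a median of 0.51, and in 11 both GHCre arrays lay above both controls, where 16.7% of all genes did. None passed the adjusted threshold. Leaving out each 3 day array in turn left 18 to 21 above 0, with medians of 0.19 to 0.82. Fbln2, which encodes the matrix protein fibulin 2, had levels of -2.02 and -1.28 in the GHCre arrays, against -5.82 and -4.18 in the controls, where it was not well above background, and was at least 4.72-fold higher (limma adjusted p 0.69). Without Fbln2, a setting chosen after seeing the data, 19 of 22 were above 0. This bound sets each control array to no less than its lowest signal well above background. The differences were 1.28 ± 0.55 for Fbln1, 1.09 ± 0.46 for Col6a1 and 1.05 ± 0.41 for Fbn1, a microfibril gene. Dpt was not well above background on any array. After 10 days 9 of 23 were above 0, with a median of -0.15, with values in both directions. Fap stood lowest of the list, at -3.31, with levels of -1.57 in the GHCre array and 1.74 in the control. Fbn1 stood at -2.35 ± 0.58. Fbln2 stood highest of the list, at 3.88 ± 1.06, with levels of 0.13 in the GHCre array and -3.75 in the control.

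Of 22 tested of 24 other mural genes, 15 had a 3 day difference above 0, with a median of 0.39, and both GHCre arrays lay above both controls in 9 and below them in 2. Over all genes these shares were 16.7% above and 21.3% below. Leaving out an array left 13 to 17 above 0. The summed level of the list went the other way, at 8.45 and 8.29 in the 3 day GHCre arrays, against 9.03 and 8.71 in the controls. Mcam, which weighs most in that sum, had levels of 8.1 and 8.1 in the GHCre arrays, against 8.9 and 8.6 in the controls. Tbx18, a transcription factor of mural cells, had levels of -1.98 and -3.11 in the GHCre arrays, against -4.10 and -6.32 in the controls, where it was not well above background, and was at least 2.55-fold higher (limma adjusted p 0.76). It was well above background on the 2 GHCre arrays of 3 days alone, so it entered the test through the group where it is high, and without it 14 of 21 genes were above 0, 8 of them with no overlap. Foxs1 had a difference of 1.00 ± 0.43 and Tpm2, a tropomyosin gene, one of 1.20 ± 0.66. Higd1b, a pericyte marker, had levels of -1.28 and -1.26 in the GHCre arrays, against 2.26 and -0.82 in the controls, so its difference of -1.99 ± 1.15 rested on 1 control array. Lmod1 and Myocd, which mark contractile smooth muscle, were not well above background on any array. Other smooth muscle genes of the list, Myh11, Cnn1, Smtn, Cald1 and Myl9, were well above background on all 6 arrays, and Actg2 on 5. After 10 days 8 of 22 were above 0, with a median of -0.15. Abcc9 stood lowest of the list, at -3.31 ± 0.59. Kcnj8 stood highest, at 2.05 ± 2.29, and was not well above background on the control array.

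The ligands of the 2 receptors were dim. Pdgfa, Pdgfb, Pdgfc and Pdgfd all had a 3 day difference above 0, where 48% of all genes did. The median was 1.16, and it ran from 0.57 to 2.24 when an array was left out, with 3 to 4 of them above 0. Both GHCre arrays lay above both controls in 2 of them, Pdgfa and Pdgfd, as in 16.7% of all genes. Pdgfd, a ligand of the beta receptor, had levels of -2.57 and -1.97 in the GHCre arrays, against -3.01 and -5.27 in the controls, and the lower control was not well above background. Pdgfa, a ligand of the alpha receptor, had a difference of 0.94 ± 0.55. Pdgfb, the pericyte recruiting ligand, had one of 0.67 ± 0.70, with overlapping groups. It was -0.09 within the slide of replicate 1 and 1.42 within that of replicate 2. Pdgfc had levels of -0.90 and -3.16 in the GHCre arrays, against -0.39 and -6.43 in the controls, of which the lower was not well above background.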

How the data were processed

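RNA of 6 sorts of 25000 to 50000 cells (1 ng amplified with NuGEN Ovation Pico, per the labels' protocols) was hybridised to 1-colour Agilent arrays. Per the file headers, the deposited processed signal is a background-subtracted intensity from Feature Extraction 10.7.3.1. The deposited series table holds log2 values of 38017 probes and correlated at 0.9999 or more with quantile normalized scanner values. Titles gave the groups, since some free-text descriptions disagree with them.

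For each probe, log2 values of unflagged spots were averaged, and the log2 of the array's 75th percentile was subtracted. A gene was its brightest probe, tested if well above background on at least 2 arrays. Of 39429 probes, 27234 were named by accession through a reference table. limma 3.58.1 (R 4.3.3) fitted a mean for each group, with 2 residual degrees of freedom, two-sided tests and Benjamini-Hochberg adjustment over 20924 genes at 0.05. The number of arrays limits the precision. The fit was tested on simulated data. Members, lists and tests were chosen with earlier results of these data known. Besides all members, the text names up to 4 genes of lowest unadjusted 3 day p in each other list described, list markers not above background, and the 5 genes nearest each class mean, except items not reported here. Gh was added to check the labels. The other hormone genes, Sox9, Abcc9, Kcnj8, Fap, Mcam and the detected smooth muscle genes were not picked by the rule of lowest p. Alternatives were quantile normalization, normexp with an offset of 50, the series table, other filters and probe rules, an intensity trend, blocks, and leaving out each 3 day array. Figures were drawn with matplotlib 3.10.9.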

Additional observations from a re-analysis of the deposited data

How the results depend on the processing

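No gene passed the adjusted threshold under any alternative, and the lowest adjusted p of a member was 0.42, in the 3 day comparison. All 4 fibroblast genes stayed above 0 after 3 days under every alternative run. Their 3 day median of 0.78 lay between 0.45 and 1.04 when an array was left out, and that of the mural genes, 0.69, between 0.38 and 1.25. After normexp background correction the mural median was 0.36 (75th percentile scaling) or 0.43 (quantile normalization). For the difference of the effects, leaving out an array gave -0.90 to -0.49 for fibroblast and -1.82 to -1.01 for mural genes. For 10 against 3 days in GHCre, it gave -0.44 to -0.28 and -0.76 to -0.27, the fibroblast median was -0.13 with the slide as a block, and the mural median was -0.63 over the genes above background on all 6 arrays. For 10 against 3 days in control, leaving out an array gave 0.15 to 0.48 for fibroblast genes.

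Signs turned as follows. Leaving out an array gave 3 day values of -0.57 to 1.19 for Rgs5, -0.71 to 0.61 for Cspg4 and -0.73 to 2.67 for Acta2. It gave -0.96 to 0.083 for Lum and -0.53 to 0.79 for Cspg4 in the difference of effects. In GHCre, 10 against 3 days, it gave -0.54 to 0.72 for Rgs5, -0.077 to 1.24 for Cspg4 and -1.28 to 1.24 for Acta2. In control it gave -0.28 to 0.45 for Dcn, -0.52 to 0.52 for Lum and -0.19 to 1.10 for Cspg4. Lum in control was also 0.13 with quantile normalization and 0.12 with the series table, and after normexp it was 0.056 (75th percentile scaling) or 0.14 (quantile normalization). Cspg4 in GHCre was -0.070 with the slide as a block. The causes were not tested.

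With the replicate number as a block, the 10 against 3 day values were 0.18 for Thy1, -0.67 for Rgs5 and 0.20 for Acta2 in GHCre and -0.21 for Dcn in control, and the control fibroblast median was 0.25. The block called 0 genes in every comparison. Same-numbered deviations correlated at 0.087 over genes after 3 days, so the numbers were not taken to pair the arrays. The slide could be a block only for the 3 day comparison and for GHCre over time. The 10 day groups have 1 array each, so no array could be left out there. Cspg4 and Acta2 were near background on replicate 1 of the 3 day controls.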

Other observations

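Endothelial genes, which share the vessel wall with pericytes, were measured beside the mural genes. Of 9 tested of 12, 8 had a 3 day difference above 0, with a median of 0.52, and 6 to 8 did when an array was left out. Esam, an endothelial adhesion molecule, had levels of -2.57 and -3.17 in the GHCre arrays, against -5.17 and -6.28 in the controls, where it was not well above background, and was at least 2.04-fold higher (limma adjusted p 0.69). Besides the 2 GHCre arrays of 3 days it was well above background on the 10 day control alone, so it entered the test mainly through the group where it is high. Leaving out the 2 genes that no 3 day control array measured, a setting chosen after seeing the data, 6 of 7 were above 0, with a median of 0.44. Emcn had a difference of 1.92 ± 0.82. Cdh5, the endothelial cadherin, had levels of 0.51 and -1.71 in the GHCre arrays, against -1.46 in replicate 1 of the controls, while control replicate 2 was not well above background. Tie1 was not well above background on any array. The summed level of the list was 3.43 and 3.09 in the 3 day GHCre arrays, against 2.90 and 2.86 in the controls, and 2.78 in the 10 day GHCre array, against 3.02 in the control. Its part in the mural values was not tested.

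Immediate early genes, which dissociation of tissue is known to raise, also leaned one way. All 10 had a 3 day difference above 0, where 48% of all genes did, with a median of 0.31. In 7 both GHCre arrays lay above both controls, as in 16.7% of all genes. Egr3 had levels of 0.76 and 0.57 in the GHCre arrays, against -1.79 and -2.05 in the controls, a difference of 2.59 ± 0.41 with an adjusted p of 0.65 in limma's fit. Its unadjusted p ranked 94 among all genes. Ier2 had a difference of 2.05 ± 0.44 and Ier3 one of 1.19 ± 0.41. After 10 days 9 of the 10 were above 0, where 49.9% of all genes were, with a median of 0.18, but Egr3 stood at -0.96. The part of dissociation in the marker values was not tested.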
